A study of Mus musculus with 3 samples.

Results

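The potassium channel genes are those whose symbol starts with Kcn followed by letters and a number, from pore-forming subunits to the auxiliary proteins that travel with them. In the transcript table of this study 98 gene symbols match that pattern. Of these, 4 antisense transcripts and the long noncoding RNA Kcnq1ot1 were left out (5 symbols), leaving 93 genes of 51803 symbols. The cells were mpkCCD cells, a mouse kidney collecting duct line that serves as a model of principal cells and had been re-cloned for high Aqp2 expression. Stable lines were made with lentivirus and puromycin selection and carried a non-target hairpin (shCtrl) or 1 of 2 different hairpins against the glucocorticoid receptor (shGR1 and shGR2). All lines were grown on membrane supports, had serum and supplements withdrawn except dexamethasone, a glucocorticoid, and received vehicle without the vasopressin analog dDAVP (0 nM). A single RNA-seq library was made from each line, 3 in all, and the comparison of each knockdown line with shCtrl asks which channel transcripts differ in abundance when the receptor is reduced. Abundance is given as FPKM, in which fragments are scaled to transcript length and to the size of the library. It was summed over the transcripts of a gene, so levels of different genes are compared per length.

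Potassium channels let K+ leave or enter cells along its electrochemical gradient and so set the membrane voltage that drives other transport. In the principal cell of the collecting duct, K+ is taken up by the Na+/K+-ATPase on the blood side and secreted into the urine mainly through the apical channel ROMK (gene Kcnj1) and, at high flow, through the large-conductance channel BK (gene Kcnma1). Inward rectifiers (Kcnj) and the K2P leak channels (Kcnk, with tandem pore domains in each subunit) are open at rest. Voltage-gated channels (Kcna to Kcnd, Kcnh, Kcnq and others) open on depolarization, and the Kcnma, Kcnn, Kcnt and Kcnu channels respond to intracellular ions. The Kcnab, Kcne, Kcnip and Kcnmb proteins are auxiliary subunits that alter gating or trafficking.

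The targeted transcript, Nr3c1, was present at 30.2 FPKM in shCtrl, against 4.41 in shGR1 and 9.13 in shGR2 cells, lower in both lines named as its knockdowns (mean log2 ratio -2.25 ± 0.74, SD, n = 2 lines). FPKM summed to between 427704 and 462522 per library, and 14388 to 14484 genes exceeded 0.3 FPKM, the minimum above which the study treated a gene as expressed. Of 10 principal cell genes, 7 passed that minimum and 5 were lower in both knockdown lines, beside 43.8% of all expressed genes. Aqp3 was higher in both (6.49 FPKM in shCtrl, 9.11 in shGR1, 8.97 in shGR2). Hsd11b2 went in opposite directions (27.8, 19.5 and 55.8 FPKM). The 10 genes summed to 279 FPKM in shCtrl, against 68.1 in shGR1 and 116 in shGR2 cells, of which Scnn1a held 168, 21.7 and 27.2. Kcnj1, the gene of ROMK, was listed at 0 in shCtrl and shGR2 and at 0.00956 FPKM in shGR1. Of 7 intercalated cell genes, 2 passed (Atp6v1b1 and Rhcg), both lower, with sums of 52.5, 22.6 and 24.2 FPKM and Foxi1 at 0 in all 3 libraries. Neuronal and fibroblast genes were low, and their sums lay below shCtrl in shGR1 and above it in shGR2. The sum of 4 neuronal genes was 3.48 FPKM in shCtrl, against 2.24 in shGR1 and 4.56 in shGR2, and that of 6 fibroblast genes was 8.69, 5.73 and 12.7. The part of these differences in the channel results was not tested. Sums in the same order were 1.20, 1.25 and 2.25 for 5 proximal tubule genes, 1.40, 1.32 and 1.92 for 5 genes marking the distal convoluted tubule or the loop of Henle, 20.8, 13.8 and 14.2 for 5 leukocyte genes, and 0.249, 0.161 and 0.302 for 4 endothelial genes.

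Few potassium channel genes were expressed in these cells. Of the 93, 14 exceeded 0.3 FPKM in at least 1 library (15.1%), against 29.8% of all 51803 symbols and 55.8% of 21676 other protein-coding symbols. K2P channels had 5 expressed genes of 14 measured, auxiliary subunits 3 of 16, voltage-gated pore subunits 4 of 40 and inward rectifiers 1 of 15. The Kcnma, Kcnn, Kcnt and Kcnu pore subunits, grouped under the label calcium- or sodium-activated, had 1 of 8. A total of 11 genes were over the minimum in every library, and 8 had a mean of at least 1 FPKM. The K2P gene Kcnk1 alone held 78.3% of the FPKM of all 93 genes in shCtrl, 64.3% in shGR1 and 72.4% in shGR2 cells.

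**Figure D1:**
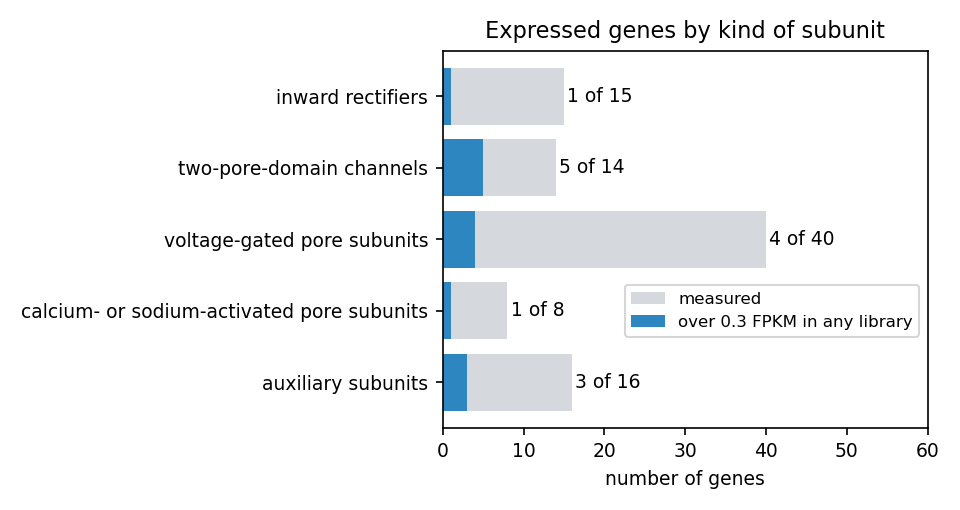
Number of potassium channel genes by kind of subunit. Grey bars give the genes measured and blue bars those over 0.3 FPKM in any of the 3 libraries; K2P (two-pore-domain) channels had 5 of 14 expressed and voltage-gated pore subunits 4 of 40.

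Of the other 79 genes, 13 were listed at 0 in all 3 libraries, among them Kcnj5, Kcna3 and Kcna5, and 66 were detected at or under 0.3 FPKM. The 66 low genes summed to 2.90 FPKM in shCtrl, against 2.38 in shGR1 and 3.68 in shGR2 cells. Of these, 34 were highest in shGR2, 18 in shCtrl and 14 in shGR1. The same count was not made over all low genes of the series, so it describes no trait of channel genes. Just under the minimum lay the voltage-gated subunits Kcnd2 (0.145 FPKM in shCtrl, 0.134 in shGR1, 0.287 in shGR2) and Kcnd1 (0.129, 0.284, 0.166), and just above it Kcnip3 (0.346, 0.230, 0.301) and Kcnc1 (0.101, 0.0799, 0.347).

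Across the 14 expressed genes, 9 were higher than shCtrl in both knockdown lines (64.3%), 4 were lower in both (28.6%) and 1 went in opposite directions. Of all 15438 expressed genes, 31.8% were higher in both lines and 43.8% lower. With FPKM rescaled to the same total in each library, those shares became 43.6% higher and 32.3% lower, while 10 of the 14 channel genes were higher and 3 lower. The median log2 ratio of the 14 was 0.59 in shGR1 and 0.31 in shGR2, beside -0.03 and -0.07 for the 15025 expressed genes with a ratio in both lines. At least 2-fold differences in both lines were found for Kcnh2 (higher, 1 of 14, against 2.54% of all expressed genes) and for none of the 14 in the lower direction (3.66% of all). Kcnh2 and Kcnc1 passed the minimum only through knockdown libraries in which they were high, so their place among the 14 and their ratios come from the same values. Both ratios of a gene share the single shCtrl library, so the 2 lines do not repeat the comparison independently.

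None of the 14 passed limma with Benjamini-Hochberg adjustment over all 15438 genes, which called 0% of genes in either direction. Their lowest adjusted p was 0.312 (Kcnq1). At an unadjusted limma p under 0.05, Kcnq1 was lower and Kcnk5 and Kcnk10 were higher, that is 1 and 2 of 14 where 9.44% and 4.53% of all genes were so. The fit takes both hairpin lines as a pair of knockdown libraries and has 1 residual degree of freedom. That residual is the difference between shGR1 and shGR2, moderated by the spread of other genes. The lone shCtrl library adds no spread, so the p-values do not measure variation between control cultures. All differences given next are therefore values of these libraries, with the SD over the 2 knockdown lines beside the mean log2 ratio.

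**Figure D2:**
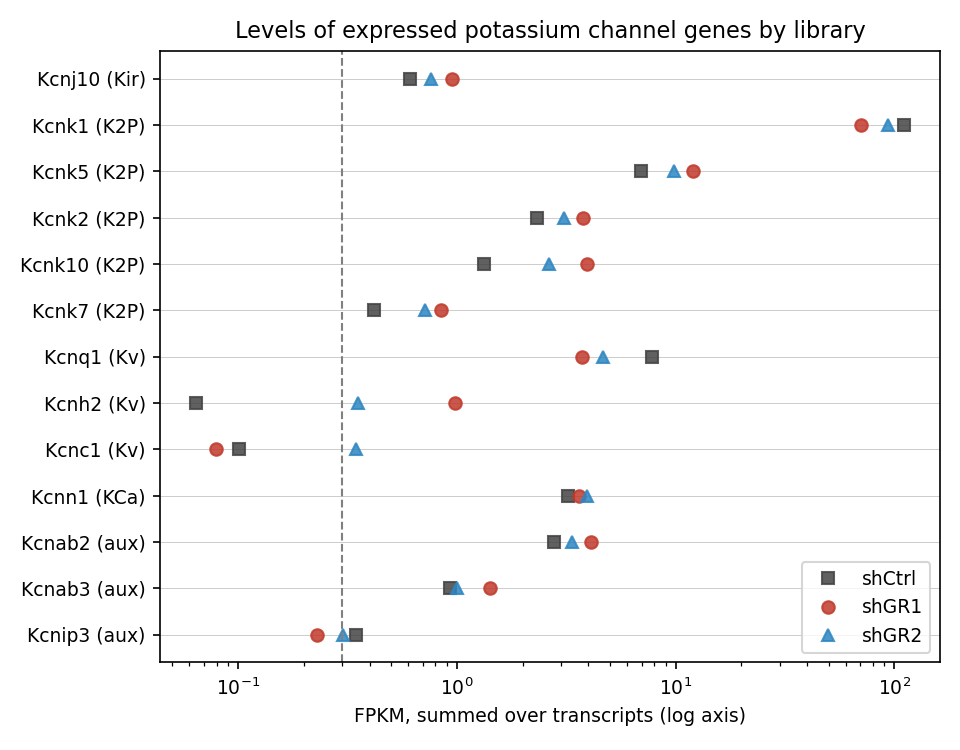
FPKM of 13 of the 14 expressed potassium channel genes in shCtrl (squares), shGR1 (circles) and shGR2 (triangles) on a log axis, ordered by kind of subunit (Kir, inward rectifier; Kv, voltage-gated; KCa, calcium-activated; aux, auxiliary). The dashed line marks 0.3 FPKM; Kcnk1 lies at 70.4 to 111 FPKM and the other genes shown at 12 FPKM or less.

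Of the pore subunits best known from the distal nephron, Kcnj1, Kcnma1 and Kcnj16 were under the minimum and Kcnj10 was over it. ROMK (Kcnj1), the secretory channel of principal cells, reached at most 0.00956 FPKM, roughly the worth of 1 fragment. Kcnma1, the pore subunit of BK, was at 0.0383 FPKM in shCtrl, against 0.1 in shGR1 and 0.0601 in shGR2. Kcnj16 (Kir5.1), the usual partner of Kir4.1 in basolateral channels, was at 0.127, 0.0479 and 0.115 FPKM. Kir4.1 itself, encoded by Kcnj10 (chr1:172341210-172374085), was the only inward rectifier above the minimum, at 0.614 FPKM in shCtrl, against 0.951 in shGR1 and 0.767 in shGR2. Both knockdown lines lay above the control (mean log2 ratio 0.48 ± 0.22, n = 2; limma adjusted p = 0.640).

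The K2P family gave the bulk of the channel transcripts and differed in direction within itself. Kcnk1, at chr8:125995170-126030685, encodes TWIK-1, a weakly inward rectifying leak subunit, and was the most abundant of the 93 genes. It was present at 111 FPKM in shCtrl, against 70.4 in shGR1 and 93.7 in shGR2 cells, lower in both knockdown lines (log2 ratios -0.65 and -0.24, mean -0.45 ± 0.29; limma adjusted p = 0.453). The 4 other expressed K2P genes were all higher in both lines. Without Kcnk1 the other 13 K2P genes summed to 11.3 FPKM in shCtrl, against 20.8 in shGR1 and 16.6 in shGR2, and without it the other 92 channel genes summed to 30.8, 39.1 and 35.7. With Kcnk1 the sum over all 93 ran the other way, from 142 to 109 and 129 FPKM.

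Kcnk5 (chr14:20140057-20181809) encodes TASK-2, a leak channel that opens at alkaline extracellular pH and is known from proximal tubule cells. It measured 6.98 FPKM in shCtrl, against 12 in shGR1 and 9.84 in shGR2 cells, and both knockdown lines exceeded the control (mean log2 ratio 0.64 ± 0.21; limma adjusted p = 0.346). Kcnk2 and Kcnk10 encode TREK-1 and TREK-2, closely related leak channels that respond to membrane stretch, temperature and lipids. Kcnk10 (chr12:98429437-98578310) measured 1.33 FPKM in shCtrl, against 3.96 in shGR1 and 2.64 in shGR2. These are ratios of 2.98 and 1.99, so that shGR2 stayed just under 2-fold (mean log2 ratio 1.29 ± 0.41; limma adjusted p = 0.332). Kcnk2 (chr1:189207930-189402273) measured 2.34 FPKM in shCtrl, against 3.79 in shGR1 and 3.10 in shGR2 (mean log2 ratio 0.55 ± 0.21; limma adjusted p = 0.455). Kcnk7 (chr19:5704367-5707109), a K2P subunit for which no current of its own is known, was low, at 0.418, 0.844 and 0.719 FPKM in the same order. These Kcnk7 levels correspond to roughly 16, 37 and 30 fragments, and so rest on few reads. Its ratios were 2.02 in shGR1 and 1.72 in shGR2 (mean log2 ratio 0.90 ± 0.16; limma adjusted p = 0.456).

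**Figure D3:**
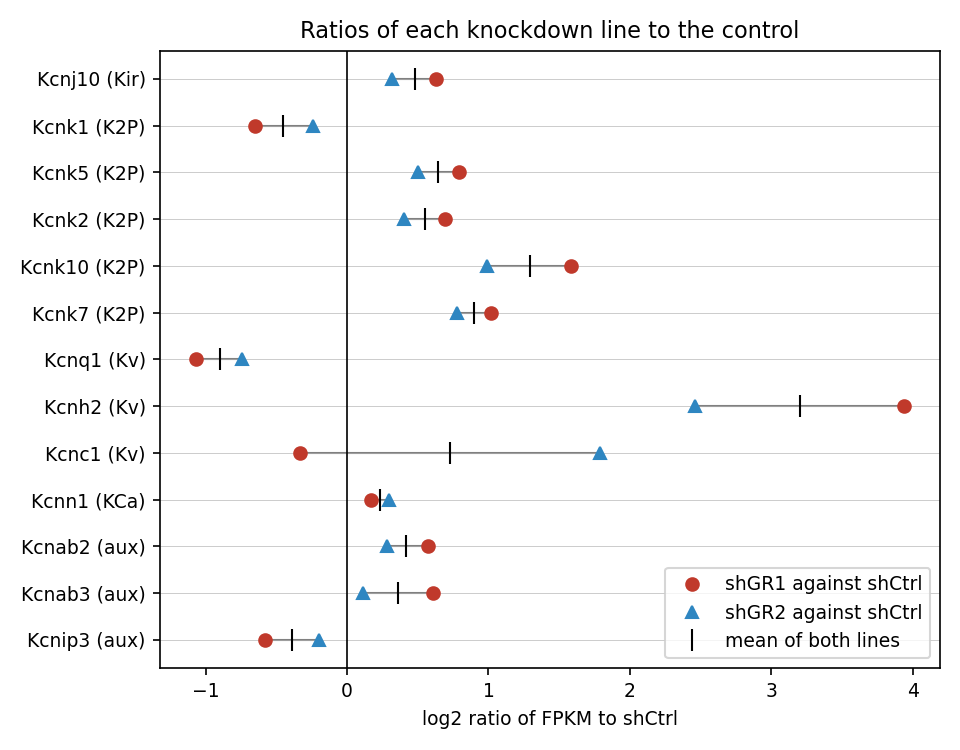
Log2 ratio of FPKM to shCtrl for 13 of the 14 expressed potassium channel genes, with shGR1 as circles, shGR2 as triangles, the mean of both as a bar and a line joining the pair. Of these, 9 lie right of 0 in both lines, Kcnk1, Kcnq1 and Kcnip3 lie left in both, and Kcnc1 lies on both sides.

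Among voltage-gated pore subunits, Kcnq1 was the gene with the lowest ratio. It lies at chr7:143106362-143427042 and encodes KvLQT1, a subunit that forms epithelial and cardiac K+ channels with Kcne partners. The shCtrl cells held 7.81 FPKM, the shGR1 cells 3.73 and the shGR2 cells 4.67, which is 0.477 and 0.599 times the control (mean log2 ratio -0.90 ± 0.23; limma unadjusted p = 0.0282, adjusted p = 0.312). Its Kcne partners were barely detected: Kcne1 was at 0.0199, 0.0282 and 0.0891 FPKM, Kcne2 at 0, 0.0192 and 0, and Kcne3 at 0, 0.0668 and 0.0601. The antisense RNA Kcnq1ot1, which overlaps Kcnq1 on the opposite strand, was level at 0.264, 0.243 and 0.253 FPKM. How strand was handled is not given in the sources used, so reads of such a pair cannot be told apart.

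Kcnh2 (chr5:24319589-24351604) encodes ERG1, the rapid delayed rectifier pore of the heart. It was at 0.0642 FPKM in shCtrl, against 0.987 in shGR1 and 0.354 in shGR2 cells, the only one of the 14 expressed genes at least 2-fold higher in both lines with FPKM as deposited (ratios 15.4 and 5.51, mean log2 ratio 3.20 ± 1.05; limma adjusted p = 0.378). The control level corresponds to roughly 7 fragments and those of the knockdown lines to roughly 52 and 31, so these ratios rest on few reads, and with 1 FPKM added to every value the mean log2 ratio was 0.62. Kcnc1 (chr7:46396497-46438704), a fast Kv3 channel subunit best known from neurons, was at 0.101 FPKM in shCtrl, against 0.0799 in shGR1 and 0.347 in shGR2. It thus lay below the control in shGR1 and above it in shGR2 (log2 ratios -0.33 and 1.79). The sums of neuronal, fibroblast, endothelial and loop of Henle or distal convoluted tubule genes ran the same way. So did the sum of the 66 low channel genes, and the pattern is not particular to any of these lists.

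The calcium-activated and auxiliary genes showed smaller differences. Kcnn1 (chr8:70842049-70863258) encodes SK1, a small-conductance channel opened by calmodulin-bound calcium, and was the only expressed gene of its kind, at 3.22 FPKM in shCtrl, against 3.62 in shGR1 and 3.95 in shGR2 (mean log2 ratio 0.23 ± 0.09; limma adjusted p = 0.663). Kcnab2 (chr4:152390742-152477871), a beta subunit of Kv1 channels with an oxidoreductase fold, was at 2.78, 4.12 and 3.37 FPKM (0.42 ± 0.20; limma adjusted p = 0.520). Kcnab3 (chr11:69326258-69333042), another beta subunit, was at 0.928, 1.42 and 1.00 FPKM (0.36 ± 0.35; limma adjusted p = 0.712), with shGR2 close to the control. None of the Kv1 pore genes (Kcna) to which these beta subunits bind was over the minimum. Kcnip3 (chr2:127456498-127522094), a calcium sensor that binds Kv4 channels and is also known as the DNA-binding protein DREAM, was at 0.346, 0.230 and 0.301 FPKM. These Kcnip3 levels correspond to roughly 26, 22 and 28 fragments, a measure by which shGR2 was not below shCtrl. Its mean log2 ratio was -0.39 ± 0.27 (limma adjusted p = 0.799) but 0.01 when only protein-coding transcripts were summed. Of the 13 genes with 1 direction in both lines, 11 lay further from shCtrl in shGR1 than in shGR2 (84.6%, beside 58.2% of 11442 such genes among all expressed), and Kcnn1 was among the exceptions.

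Windows of 250 bases before RefSeq transcription starts (GRCm38.p6) were read for 11 of the 14 expressed genes, 20 windows in all since some genes have several starts. Kcnq1 and Kcnab3 were among the genes without a window, so their starts were not searched. The glucocorticoid receptor binds a palindrome of the core site AGAACA, which reads TGTTCT on the other strand, and these windows were searched on both strands for the full element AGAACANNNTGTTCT and for the core site alone. The full element was in 0 of these windows and in 3 of 32851 windows of all genes (0.00913%). A core site was in 3 of the 20 windows (15%), beside 16.1% of all windows, and these were the window of Kcnj10, 1 of 4 of Kcnk2 and 1 of 2 of Kcnk10. A match is only a match of letters. The windows shown are those of Kcnk1 and Kcnk5, the most abundant of the genes, of Kcnk10 and Kcnk2, at the 1 start of each gene whose window holds a core site, and of Kcnh2, the expressed gene with ratios over 2 in both lines. Kcnh2 was picked by a rule on those ratios, and the others after their values were seen. Sequences run 5′ to 3′ on the strand of the gene, and capitals mark a core site.
Kcnk1: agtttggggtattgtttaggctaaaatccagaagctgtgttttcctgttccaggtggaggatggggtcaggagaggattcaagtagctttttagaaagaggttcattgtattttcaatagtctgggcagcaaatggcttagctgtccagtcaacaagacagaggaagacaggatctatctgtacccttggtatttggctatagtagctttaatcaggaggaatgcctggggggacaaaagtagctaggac
Kcnk5: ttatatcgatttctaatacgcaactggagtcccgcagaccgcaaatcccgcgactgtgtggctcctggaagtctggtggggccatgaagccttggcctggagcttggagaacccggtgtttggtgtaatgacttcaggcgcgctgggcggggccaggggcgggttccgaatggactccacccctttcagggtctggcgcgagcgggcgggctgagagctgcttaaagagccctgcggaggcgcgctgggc
Kcnk10: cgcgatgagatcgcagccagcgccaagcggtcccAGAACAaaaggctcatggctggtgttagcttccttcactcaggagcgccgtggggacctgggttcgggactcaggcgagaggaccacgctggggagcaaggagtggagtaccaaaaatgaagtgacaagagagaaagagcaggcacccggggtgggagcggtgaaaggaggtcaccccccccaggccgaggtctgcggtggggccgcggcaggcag
Kcnk2: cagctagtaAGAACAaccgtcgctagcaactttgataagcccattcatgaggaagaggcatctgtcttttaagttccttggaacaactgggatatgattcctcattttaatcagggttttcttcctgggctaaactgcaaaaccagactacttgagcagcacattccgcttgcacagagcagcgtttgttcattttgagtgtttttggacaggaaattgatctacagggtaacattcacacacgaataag
Kcnh2: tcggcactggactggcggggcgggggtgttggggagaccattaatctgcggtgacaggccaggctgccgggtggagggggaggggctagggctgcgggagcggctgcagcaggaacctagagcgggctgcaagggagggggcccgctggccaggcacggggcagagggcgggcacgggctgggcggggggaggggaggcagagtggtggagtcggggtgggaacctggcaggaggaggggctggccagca

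The window of Kcnk1 (chr8:125994852-125995101, plus strand) held no CG pair and was 44.4% G or C, beside a median of 52.4% over all windows. That of Kcnk5 (chr14:20181783-20182032, minus strand) was 62.8% and that of Kcnh2 (chr5:24329592-24329841, minus strand) 73.6%. The Kcnh2 window precedes the start of the 3193-base transcript, inside the span of the longer form. The Kcnk10 window shown (chr12:98575128-98575377, minus strand) precedes its 2629-base transcript. The Kcnk2 window shown (chr1:189402274-189402523, minus strand) precedes the 3131-base transcript, annotated as a target of nonsense-mediated decay.

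The transcript values show which forms stood behind the gene levels. For Kcnk1 a protein-coding transcript of 2235 bases held 97.5% of the gene in shCtrl, 95.3% in shGR1 and 97.5% in shGR2. For Kcnq1 the 3029-base transcript was lower like the gene, at 5.77 FPKM in shCtrl, against 2.85 in shGR1 and 3.23 in shGR2, whereas the 1535-base form was at 0.843, 0.879 and 1.18 FPKM. A Kcnq1 form of only 282 bases was at 1.20, 0 and 0.263 FPKM. For Kcnk10 the 1357-base transcript was at 0.519 FPKM in shCtrl, against 2.19 in shGR1 and 1.43 in shGR2 (log2 ratios 2.08 and 1.46), and the 2629-base transcript was at 0.665, 1.47 and 0.948 (1.15 and 0.51). Both Kcnk10 forms were therefore above the control in both lines.

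Kcnk2 had almost no FPKM on its protein-coding transcripts, which summed to 0.000114 in shCtrl, 4.77e-05 in shGR1 and 0 in shGR2. Its level came from a 334-base processed transcript (1.44, 2.40 and 2.00 FPKM) and from the 3131-base transcript annotated for nonsense-mediated decay (0.900, 1.39 and 0.986 FPKM). Of the 334 bases, 83 lie in exons of protein-coding Kcnk2 transcripts. The remaining exon of 251 bases (chr1:189214967-189215217) lies in none, so the Kcnk2 level as summed holds almost nothing assigned to coding forms of TREK-1. Kcnh2 was split between a 605-base processed transcript (0, 0.615 and 0.0363 FPKM) and protein-coding forms (summing to 0.0642, 0.306 and 0.256 FPKM). Unlike the Kcnk2 form, most of this 605-base transcript lies in exons of protein-coding Kcnh2 transcripts (388 of 434 and 171 of 171 bases by exon). On coding forms alone both knockdown lines still lay above shCtrl, and by more similar amounts. For Kcnab2 the 3533-base transcript was at 2.06, 2.58 and 1.83 FPKM, lower than the control in shGR2. A 1576-base form was at 0.000338 FPKM in shCtrl, against 0.349 in shGR1 and 0.451 in shGR2. A 347-base processed transcript was at 0, 0.412 and 0.308 FPKM. As FPKM is scaled to length, the short forms of Kcnq1 (282 bases), Kcnk2 (334) and Kcnab2 (347) rest on few fragments. Protein-coding forms of Kcnab2 summed to 2.78, 3.6 and 2.88 FPKM, so on these shGR2 was close to the control.

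**Figure D4:**
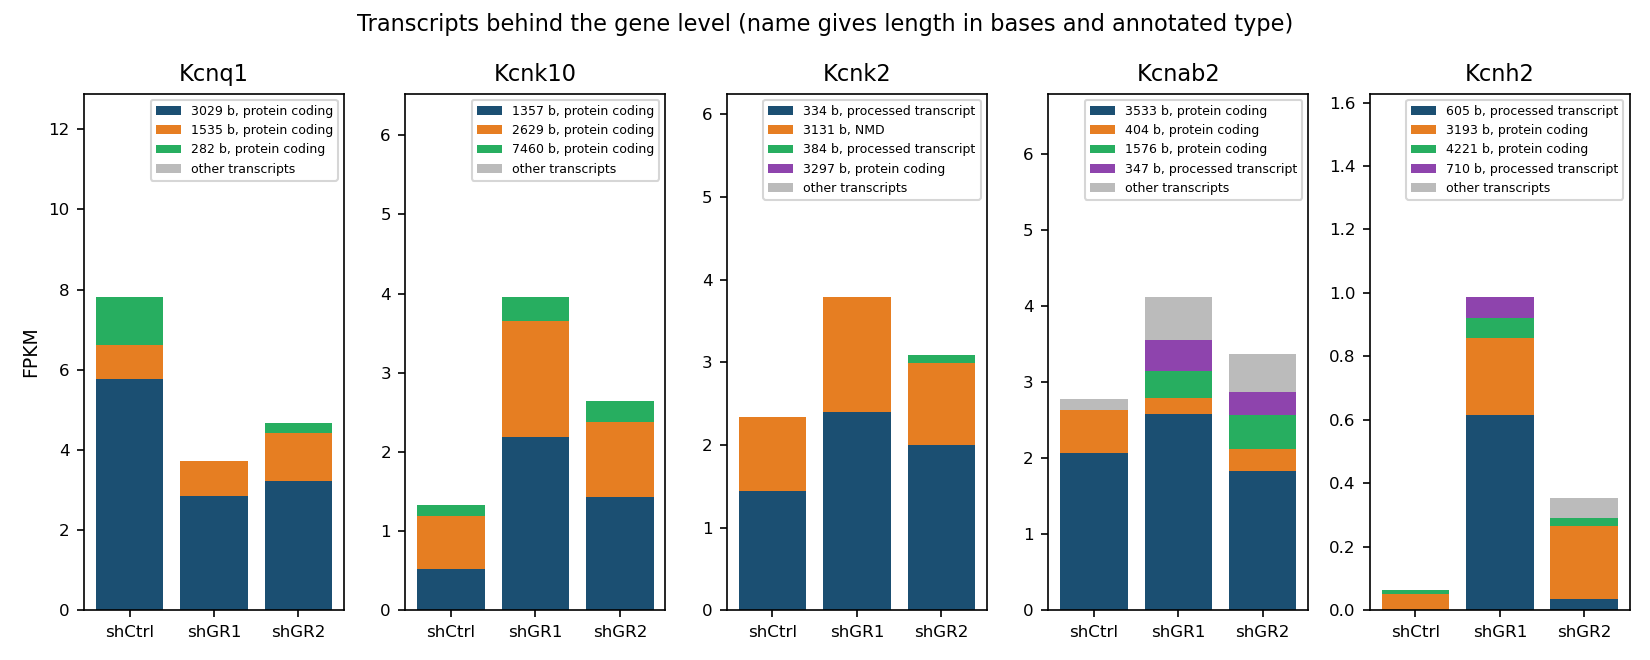
FPKM of the transcripts of Kcnq1, Kcnk10, Kcnk2, Kcnab2 and Kcnh2, stacked per library, each panel on its own axis starting at 0. The legends give transcript length in bases (b) and annotated type (NMD, nonsense-mediated decay); the blue 605-base Kcnh2 transcript is 0.615 FPKM in shGR1 and 0 in shCtrl, and the Kcnk2 bars hold almost no protein-coding transcript.

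For Kcnn1 the main 1608-base transcript was at 2.16 FPKM in shCtrl, against 2.55 in shGR1 and 2.80 in shGR2, in the direction of the gene. For Kcnab3 the protein-coding 2538-base form was at 0.676, 0.980 and 0.674 FPKM, so shGR2 was level with the control, and a 2126-base form with a retained intron was at 0.253, 0.440 and 0.329. The exons of 7 of the 14 expressed genes overlap another annotated gene. Apart from Kcnq1ot1, these neighbours reached at most 0.028 FPKM.

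Genes that act with the channels but do not carry a Kcn name were examined as a further list. Of 24 channel partners and regulators, 13 were expressed, 8 were lower in both lines and 1 was higher (Cul3), beside 43.8% and 31.8% of all expressed genes. With FPKM rescaled to the same total, 7 were lower and 3 higher, beside 32.3% and 43.6% of all. The median log2 ratio of the list was -0.17, beside -0.05 for all expressed genes. The 2 that were at least 2-fold lower in both lines are linked to the secretory channels. Sgk1, the serum- and glucocorticoid-regulated kinase that raises the surface abundance of ENaC and ROMK, was at 99.8 FPKM in shCtrl, against 2.36 in shGR1 and 3.92 in shGR2 (mean log2 ratio -5.04 ± 0.52; limma adjusted p = 0.217). Lrrc26, a gamma subunit that lets BK channels open at lower voltage, was at 18.6, 2.79 and 3.15 FPKM (mean log2 ratio -2.65 ± 0.13; limma adjusted p = 0.217). The pore genes of ROMK and BK were at or under 0.1 FPKM in the same libraries, as given above. Over the scalings, minima, pseudocounts and transcript choices tried, the mean log2 ratio of Sgk1 was -4.63 or lower and that of Lrrc26 -2.30 or lower.

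**Figure D5:**
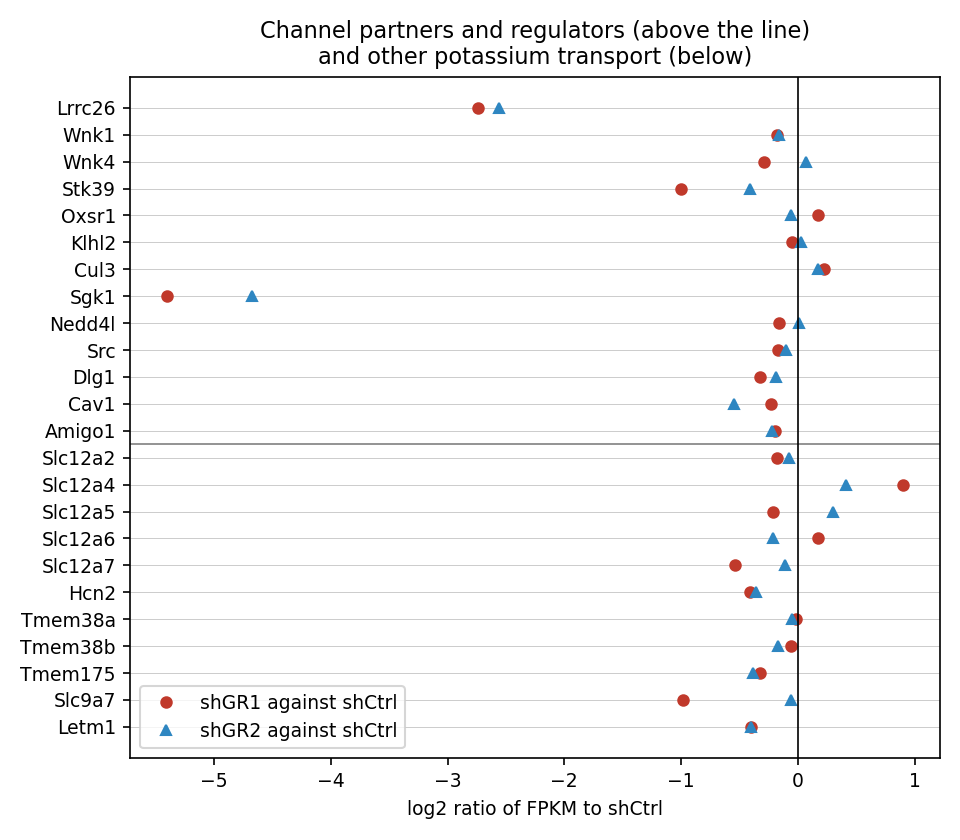
Log2 ratio of FPKM to shCtrl for the 13 expressed channel partners and regulators (above the grey line) and the 11 expressed genes of other potassium transport (below it), with shGR1 as circles and shGR2 as triangles. Sgk1 and Lrrc26 lie far left of 0 at means of -5.04 and -2.65, while the means of the other genes lie between -0.71 and 0.65.

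Of 18 genes for other potassium transport or potassium-permeable channels, 11 were expressed. In both lines 8 were lower and 1 higher, beside 43.8% and 31.8% of all expressed genes. The median log2 ratio of the list was -0.13, beside -0.05 for all. None of the 11 was at least 2-fold lower or higher in both. With FPKM rescaled to the same total, 3 were lower and 2 higher, beside 32.3% and 43.6% of all. The gene higher in both lines was Slc12a4, the K-Cl cotransporter KCC1, at 14.6 FPKM in shCtrl, against 27.2 in shGR1 and 19.4 in shGR2 (mean log2 ratio 0.65 ± 0.35; limma adjusted p = 0.405).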

How the data were processed

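Libraries of mpkCCD cells (shCtrl, shGR1 and shGR2, 1 each) were sequenced, aligned and quantified by the authors, who deposited FPKM per Ensembl transcript. Tools named in the submitters' processing notes are HISAT2, Cuffdiff, Cufflinks 2.2.1 and bcl2fastq 2.20. Deposited ratios, log2 ratios and p- and q-values of the authors' own comparisons were not used, and 0 other sample columns were left out. The notes name GRCm39, but 96.6% of 352 channel transcripts lay where GENCODE M21 (GRCm38) places them, and positions follow that build. Reads were not counted anew. The rough worth of 1 fragment came from the lowest FPKM steps of genes with 1 transcript, a crude measure, and no counting error could be given.

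FPKM was summed per symbol. Genes over 0.3 FPKM in any library were kept, and ratios were taken without a pseudocount. Limma 3.58.1 (R 4.3.3) was fitted with an abundance trend to log2(FPKM + 0.1), with the lone control assumed to vary as the knockdown lines do. Adjustment was by Benjamini-Hochberg with a threshold of 0.05. The script was tested on simulated data. Nothing says that the lines are repeat cultures. Every expressed channel gene was named except 1 that is not reported here on its own but stays in counts, medians and sums. Values by library were given where the mean reached 1 FPKM or both ratios were 2-fold, for kidney pore genes whatever their level, and for the other named genes. Names ending in os and a digit were left out with the other antisense names. Alternatives covered scaling, low-value filter, pseudocount, transcript choice, limma options and leaving out each knockdown line. The members and lists were chosen with earlier results of these data known.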

Additional observations from a re-analysis of the deposited data

Results flagged for a closer look

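Kcnc1 went in opposite directions in the knockdown lines, with a log2 ratio to shCtrl of -0.33 in shGR1 and 1.79 in shGR2. Each line is 1 library, so this difference was not tested. The levels correspond to roughly 19 fragments in shCtrl, 14 in shGR1 and 35 in shGR2. In shGR2, 43.9% of the level lay on a 531-base processed transcript (0.153 FPKM, against 8.24e-05 in shCtrl and 0 in shGR1). Protein-coding forms of Kcnc1 summed to 0.1 FPKM in shCtrl, against 0.0799 in shGR1 and 0.195 in shGR2, all under the 0.3 FPKM minimum.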

How the results depend on the processing

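No paired analysis was possible because the control is a single library and the hairpin numbers are not shared with it. With no filter on low values, 56 channel genes had a finite ratio in both lines. Of these, 18 were lower in both and 24 higher, beside 41.4% and 31.9% of all 18843 such genes. At least 2-fold lower were 4 of the 56 and at least 2-fold higher 2, and their median in shGR1 turned to -0.05. For this and the following settings the share of all genes at least 2-fold lower or higher was not taken. The 2-fold counts of channel genes there have no background beside them. With a minimum of 1 FPKM, 8 genes remained, 2 of them lower and 6 higher, beside 45.7% and 31.8% of 12969 genes. Of these 8, 0 were at least 2-fold higher. With a pseudocount of 1 FPKM, 0 were at least 2-fold higher and the median log2 ratio was 0.20 for both lines and 0.30 for shGR1. The count at least 2-fold higher was 2 (Kcnh2 and Kcnk10) with median-centred, rescaled or quantile-normalized values and with the length trend removed, and 2 with the highest transcript only. Summing protein-coding transcripts only, 12 genes remained, 3 of them lower and 7 higher, beside 47.8% and 30% of 11854 genes, with a median of 0.25. This setting, the length trend and the fit without genes at 0 in both knockdown libraries were chosen after seeing the data. Leaving out shGR1 or shGR2 gave 2 and 3 genes at least 2-fold higher and 0 and 1 lower (Kcnq1), as each count then needs 1 line only, with medians of 0.31 and 0.59. Kcnip3 turned to 0.36 with the highest transcript and 0.01 with protein-coding transcripts, and Kcnc1 to -0.33 without shGR2 (1.79 without shGR1). Limma called 0 genes of all in the fit as reported, but 155 lower and 66 higher with median-centred ratios, 287 and 84 with no filter, 161 and 89 with the length trend removed, 277 and 74 with protein-coding transcripts, 173 and 65 without the genes at 0 in both knockdown libraries, and 82 and 28 with robust moderation. No channel gene was called in any of these fits, the lowest adjusted p being 0.0996 (Kcnq1, protein-coding transcripts). With 1 library per line, the differences of Kcnh2, Kcnc1, Kcnk7 and Kcnip3 rest on few reads, as do the values of the shortest transcripts.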
